A study of Mus musculus with 16 samples.

Results

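The 32 genes described here encode the chaperones, oxidoreductases, lectins, degradation factors, translocon subunits and stress sensors of the endoplasmic reticulum (ER), and were chosen by name among the 20490 genes of the expression table. All 32 were found and all 32 passed the filter on low values, 1 RPKM (reads relative to transcript length and library size) or more in at least 2 libraries. They comprise 8 chaperones and cochaperones, 5 oxidoreductases, 2 lectin chaperones, 7 genes of ER-associated degradation (ERAD), 4 sensors and transcription factors of the unfolded protein response, 5 translocon subunits and Ufm1. The study asked how vesicles of prostate cancer cells affect the formation of osteoclasts, the cells that resorb bone, from a mouse precursor line.

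RAW264.7 is a transformed mouse macrophage line that becomes osteoclast-like under RANKL, the cytokine that drives osteoclast formation. PC3M is a metastatic subline of the human prostate cancer line PC-3, and extracellular vesicles (EV) are the membrane particles that such cells release. After 12 h of attachment, cultures received EV at 30 µg/mL together with RANKL at 10 ng/mL (EV+RANKL), EV alone at 30 µg/mL, RANKL alone at 10 ng/mL, or phosphate-buffered saline only (PBS). RNA was taken at 48 h and at 72 h, from 8 groups with 2 libraries apiece. All groups share 1 cell line and 1 medium with fetal bovine serum, and none received vesicles of another cell type, so PBS is the only control. Separate cultures are not named in the labels, and the spread that the p-values rest on may therefore be technical.

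Proteins that enter the ER are folded there with the help of BiP (Hspa5), GRP94 (Hsp90b1) and their cochaperones, gain disulfide bonds from the protein disulfide isomerases, and, when glycosylated, pass through the calnexin and calreticulin cycle. When unfolded protein accumulates, the sensors IRE1 (Ern1), PERK (Eif2ak3) and ATF6 (Atf6) set off the unfolded protein response: IRE1 splices the Xbp1 transcript, ATF6 is cleaved to a transcription factor, and PERK dampens translation. XBP1 and ATF6 then raise the genes of chaperones and ERAD, many of them through the ER stress element of their promoters. Osteoclasts secrete proteases and acid and depend on this machinery for making lysosomal and secreted enzymes. Gene-level values as used here do not show the splicing of Xbp1, the cleavage of ATF6 or the phosphorylation of PERK.

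RefSeq promoter sequences of GRCm38.p6, 250 bases before to 50 bases after the start of each gene, were found for 26 of the 32 genes. They are shown, a choice made with the results known, because some of the genes that moved most have the ER stress element (ERSE). It was searched here as CCAAT, 9 bases and CCACG on both strands. Of 32851 promoters in the table, 39 held it (0.119%), among them those of Hspa5, Calr, Hsp90b1, Canx, Pdia6, Dnajc3, Creld2 and Syvn1, which is 8 of the 26. The related ERSE-II, searched as ATTGG, 1 base and CCACG on both strands, was in 12 promoters (0.0365%), of which 2 belong to Herpud1 and Dnajb11. The unfolded protein response element TGACGTGG was in 222 promoters (0.676%) and in 0 of the 26. ERSE and ERSE-II share the letters CCACG, and its complement CGTGG also ends TGACGTGG. The Hspa5 promoter is given whole, and for the other 9 genes the match with 15 bases on each side is given, along the gene's strand. Capitals mark the match, and Hsp90b1 has 2 of them.
Hspa5, chr2:34771840-34772139, plus strand: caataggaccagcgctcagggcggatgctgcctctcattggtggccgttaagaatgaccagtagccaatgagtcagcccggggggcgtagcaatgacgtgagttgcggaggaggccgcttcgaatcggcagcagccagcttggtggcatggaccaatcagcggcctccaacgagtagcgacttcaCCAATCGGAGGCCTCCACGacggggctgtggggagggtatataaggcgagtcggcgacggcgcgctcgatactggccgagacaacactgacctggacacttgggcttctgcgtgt
Calr, chr8:84847060-84847108, minus strand: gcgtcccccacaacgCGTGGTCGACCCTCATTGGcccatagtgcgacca
Hsp90b1, chr10:86705518-86705671, minus strand: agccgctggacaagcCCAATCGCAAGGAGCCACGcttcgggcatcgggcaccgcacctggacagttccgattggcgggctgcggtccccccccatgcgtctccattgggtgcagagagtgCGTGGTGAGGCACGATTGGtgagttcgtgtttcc
Canx, chr11:50325785-50325833, minus strand: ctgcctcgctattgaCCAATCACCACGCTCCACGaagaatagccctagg
Pdia6, chr12:17266476-17266524, plus strand: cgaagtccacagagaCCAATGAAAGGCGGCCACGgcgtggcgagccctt
Dnajc3, chr14:118937812-118937860, plus strand: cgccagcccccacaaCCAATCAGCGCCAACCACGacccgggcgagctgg
Creld2, chr15:88819505-88819553, plus strand: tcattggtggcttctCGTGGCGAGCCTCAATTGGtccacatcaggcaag
Syvn1, chr19:6046517-6046565, plus strand: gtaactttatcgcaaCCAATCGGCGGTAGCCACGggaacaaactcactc
Herpud1, chr8:94386362-94386402, plus strand: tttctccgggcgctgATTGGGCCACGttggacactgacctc
Dnajb11, chr16:22857837-22857877, plus strand: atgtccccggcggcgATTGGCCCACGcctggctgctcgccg
A match is a description of these letters and says nothing of whether a factor binds there.

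Levels are given below as RPKM, converted from log2(RPKM + 1) in the authors' table. Depth was estimated at 18.26 M (mega) for the shallowest and 20.02 M reads for the deepest library. The summed RPKM of 6 macrophage markers was 1928 to 2401 in EV+RANKL, 5760 to 5959 in EV, 2374 to 3063 in RANKL and 5586 to 6420 in PBS cultures of 72 h, and 2152 to 2554, 5672 to 6988, 2943 to 2985 and 7148 to 7695 in the same groups at 48 h, so that it was low where RANKL was given. Lyz2, which encodes lysozyme, fell in EV+RANKL against PBS, with log2 changes of -2.28 at 48 h and -2.43 at 72 h (limma). It also fell in RANKL against PBS, with -1.66 at both times (limma). Lyz2 had 5445 and 6084 RPKM in PBS cultures of 48 h, and with Cd68 it made up most of the sum. The low sum with RANKL was thus largely that of Lyz2. At 48 h Csf1r, Itgam and Adgre1 fell as well in both comparisons. At 72 h Csf1r rose in EV+RANKL (0.41) and in EV (0.49), and Adgre1 rose in EV (0.68). In RANKL against PBS at 72 h Lyz2 was the only 1 of 5 tested macrophage markers to pass. Cd68 was at 782 to 1318 RPKM and was called in none of these comparisons, and Mrc1 was at 0.530 RPKM or below. The summed RPKM of 8 osteoclast markers was 1085 to 1585 in EV+RANKL, 96.9 to 126 in EV, 452 to 827 in RANKL and 18.6 to 19.3 in PBS cultures of 72 h. Plasma cells are a cell type known for abundant ER chaperones. Their defining genes Jchain and Mzb1 were at or near 0, at most 0.0210 and 0.0584 RPKM, while Ighm reached 37.9 RPKM, Sdc1 25.6 RPKM and Prdm1 6.74 RPKM. Against PBS, Prdm1 rose in RANKL (0.90 at 48 h and 2.08 at 72 h) and in EV+RANKL (1.63 and 2.64). Sdc1 rose and Ighm fell in EV+RANKL at both times and in RANKL at 48 h, so these markers did not move together. The sum of the 6 plasma cell markers was 18.8 to 24.5 in EV+RANKL, 33.0 to 37.9 in EV, 19.6 to 31.2 in RANKL and 31.7 to 44.6 RPKM in PBS cultures of 72 h. Of 2 epithelial markers, Epcam and Krt8, the sum was 0.0499 RPKM or below throughout. Of 4 fibroblast or osteoblast markers, Col1a1 and Pdgfra were at or near 0 and Bglap reached 0.0851 RPKM. Runx2 had 0.259 and 0.266 RPKM in EV+RANKL, 0.867 and 0.633 in EV, 0.270 and 0.233 in RANKL and 0.579 and 0.467 RPKM in PBS cultures of 72 h, and was lower with RANKL than in PBS at 48 h too. Of the 16 libraries, 5 stood apart: both EV and both EV+RANKL libraries of 72 h and replicate 2 of RANKL at 72 h. In these 5 the summed RPKM was made up of ribosomal protein genes to 10.1% to 10.6%, against 7.49% to 8.92% in the other 11. Of 10365 tested genes, 1559 lay in all 5 beyond the range of the other 11, 782 above it and 777 below it. Genes of mitochondrial DNA accounted for 21.8% to 26.9% in EV+RANKL and RANKL libraries, 19.3% to 22.7% in EV and 20.1% to 20.8% in PBS libraries. The part of these markers and shares in the results below was not tested. Among the 32 genes, Sec61b lay above that range, and Dnajb11, Hsp90b1, Ssr1 and Calr below it.

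Levels per kilobase spanned more than 2 orders of magnitude among the 32 genes. In PBS cultures of 48 h Calr, the soluble lectin calreticulin, was highest at 923 and 937 RPKM, followed by Hsp90b1 at 490.5 and 479, Pdia3 at 395 and 413 and P4hb at 362 and 325 RPKM. Pdia3 and P4hb encode disulfide isomerases, and their libraries did not overlap. At the low end stood Derl2, an ERAD channel subunit, at 4.54 and 4.37, the PERK gene Eif2ak3 at 4.05 and 3.74 and the IRE1 gene Ern1 at 3.68 and 3.81 RPKM, and the libraries of Eif2ak3 and Ern1 overlapped. Summed over the 32 genes, cultures of 48 h held 2816 ± 185 RPKM in EV+RANKL, 3501 ± 65.5 in EV, 2817 ± 161 in RANKL and 3573 ± 4.73 in PBS (SD, n = 2 each). At 72 h the sums were 2272 ± 52.7 in EV+RANKL, 2747 ± 251 in EV, 2584 ± 247 in RANKL and 3666 ± 96.1 RPKM in PBS (SD, n = 2 each). In every treated group both libraries lay below both PBS libraries of the same time, and EV at 48 h was the closest to PBS. The 32 genes were 0.608% to 1.06% of the summed RPKM of a library. In bulk RNA, fewer cells of a type and less RNA per cell cannot be told apart.

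**Figure D1:**
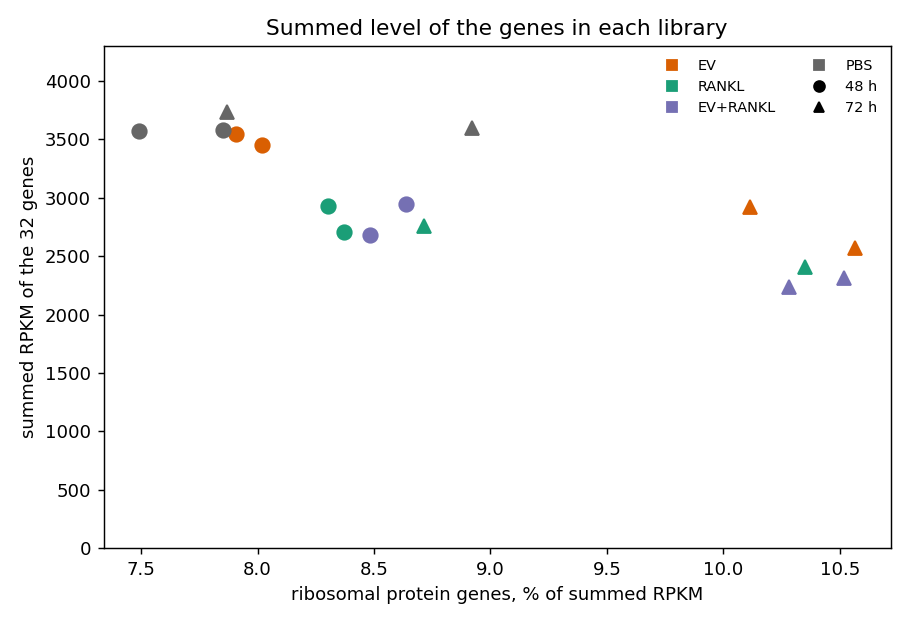
Summed RPKM of the 32 genes (y axis, from 0) against the share of ribosomal protein genes in summed RPKM (x axis, %), 1 point per library, coloured by treatment and marked by time. The 5 libraries of 72 h above 10% on the x axis lie between 2235 and 2925 RPKM, and the 4 PBS libraries between 3570 and 3734 RPKM.

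**Figure D2:**
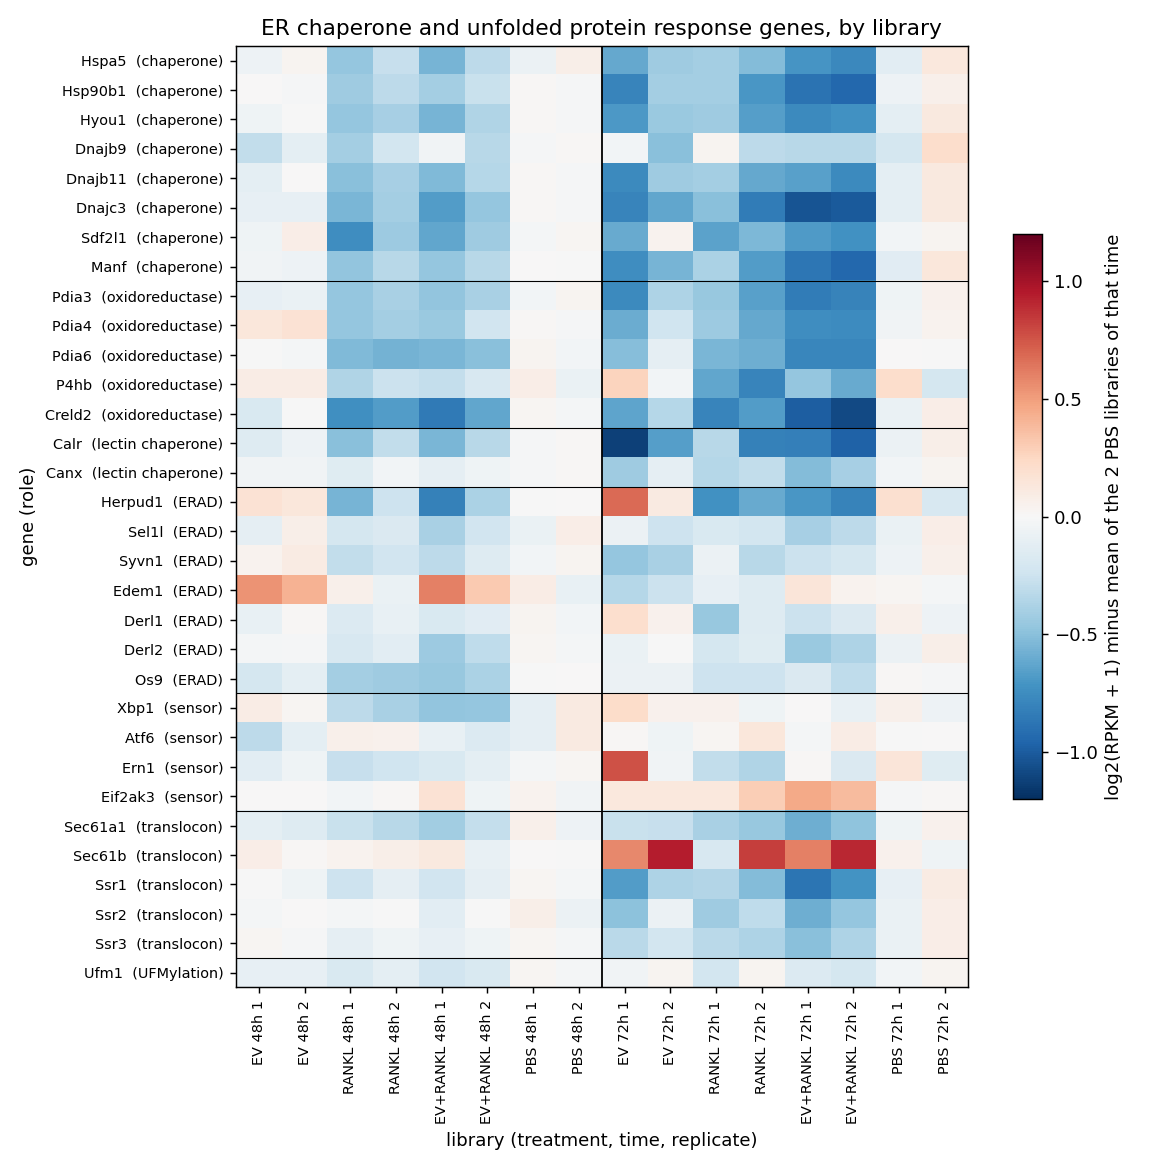
Heat map of the 32 genes (rows, grouped by role) in the 16 libraries (columns, labelled by treatment, time and replicate). Colour is the log2 value minus the gene's mean over the 2 PBS libraries of the same time. Creld2 and Dnajc3 are lower in the RANKL and EV+RANKL columns than in the PBS columns at both times. P4hb in the EV columns of 72 h (555 and 450.2 RPKM) is near its PBS level (533 and 399 RPKM). Sec61b is high in the 5 libraries that stand apart.

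RANKL against PBS at 48 h asks what the osteoclast-forming cytokine does early. With RANKL, 12 of the 32 genes fell and 0 rose (limma, Benjamini-Hochberg adjusted p under 0.05), against 8.29% of all 10365 tested genes lower and 6.47% higher. The fallen genes were 5 of 8 chaperones (Sdf2l1, Dnajc3, Dnajb11, Hyou1 and Manf), 4 of 5 oxidoreductases (Creld2, Pdia6, Pdia4 and Pdia3), the ERAD lectin Os9, the transcription factor Xbp1 and the translocon channel Sec61a1. The median change of the 32 genes was -0.31 on the log2(RPKM + 1) scale, against 0.06 for all tested genes. Without any 1 of the 4 libraries, 3 or 4 genes passed.

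Creld2, an ER isomerase-like protein induced under ER stress, had 25.0 and 26.2 RPKM in RANKL cultures, against 42.9 and 41.5 RPKM in PBS cultures. All RANKL libraries lay below all PBS libraries, and the change was -0.70 ± 0.12 (log2 ± SE, limma adjusted p = 0.00141). Sdf2l1, a component of the BiP complex, had 23.7 and 29.5 RPKM in RANKL cultures, against 39.7 and 41.0 RPKM in PBS cultures. It changed by -0.59 ± 0.17 (limma adjusted p = 0.0306), again without overlap. Pdia6, the disulfide isomerase P5, had 70.2 and 68.6 RPKM in RANKL cultures, against 105 and 99.5 RPKM in PBS cultures, a change of -0.55 ± 0.11 (limma adjusted p = 0.00459). Os9, which passes misfolded glycoproteins to the ERAD ligase, had 27.6 and 27.1 RPKM in RANKL cultures, against 36.8 and 37.1 RPKM in PBS cultures. Its change was -0.42 ± 0.08 (limma adjusted p = 0.00281), and its libraries differed little within a group. Creld2, Pdia6 and Os9 passed in all 9 alternative settings tried for them, and no other of the 12 did.

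Xbp1, the transcription factor spliced by IRE1, had 42.4 and 40.3 RPKM in RANKL cultures, against 49.3 and 57.2 RPKM in PBS cultures at 48 h (-0.35 ± 0.10, limma adjusted p = 0.0277). Sec61a1, the channel of the translocon, had 31.4 and 29.9 RPKM in RANKL cultures, against 39.8 and 36.4 RPKM in PBS cultures (-0.30 ± 0.09, limma adjusted p = 0.0315). Both were lower in RANKL without overlap. The BiP gene Hspa5 had 196 and 223 RPKM in RANKL cultures, against 257 and 284 RPKM in PBS cultures, and missed the threshold (-0.37 ± 0.12, limma adjusted p = 0.0621). Calr had 657 and 757 RPKM in RANKL cultures, against 923 and 937 RPKM in PBS cultures, and also missed it (-0.40 ± 0.17, limma adjusted p = 0.142). In all, 30 of the 32 changes were negative, against 39.2% of all tested genes.

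RANKL against PBS at 72 h asks the same of the later culture. Here 18 of the 32 genes fell with RANKL and 0 rose, against 9.13% of all tested genes lower and 9.73% higher (limma). All 5 oxidoreductases fell, as did 7 of 8 chaperones (all but Dnajb9), the lectin Calr, the ERAD genes Herpud1 and Os9, and 3 of 5 translocon genes (Sec61a1, Ssr1 and Ssr3). The median change was -0.39, against -0.00 for all tested genes. The replicates were unlike: replicate 2 of RANKL is 1 of the 5 libraries that stand apart, and 6 genes passed without it, 5 without replicate 2 of PBS and 3 in a fit of the 72 h libraries alone, which was added after seeing the data. Of the 32 changes 28 were negative, against 50.1% of all tested genes.

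Dnajc3, the BiP cochaperone p58IPK and an inhibitor of PERK, had 20.0 and 15.7 RPKM in RANKL cultures, against 26.4 and 31.3 RPKM in PBS cultures of 72 h (-0.67 ± 0.12, limma adjusted p = 0.00286). Creld2 had 25.5 and 27.8 RPKM in RANKL cultures, against 42.5 and 47.4 RPKM in PBS cultures (-0.73 ± 0.12, limma adjusted p = 0.0013). P4hb, protein disulfide isomerase itself, had 299 and 266 RPKM in RANKL cultures, against 533 and 399 RPKM in PBS cultures (-0.71 ± 0.14, limma adjusted p = 0.00456). These 3 genes were lower in RANKL with no overlap and passed in all 9 alternative settings, and the other 15 fell out of at least 1. Herpud1, an ERAD scaffold in the ER membrane, had 13.1 and 14.3 RPKM in RANKL cultures, against 25.6 and 19.3 RPKM in PBS cultures (-0.66 ± 0.19, limma adjusted p = 0.0277). The PBS libraries of Herpud1 spread widely, although both lay above both RANKL libraries. Calr had 682 and 489 RPKM in RANKL cultures, against 819 and 902 RPKM in PBS cultures (-0.57 ± 0.17, limma adjusted p = 0.0335). Hspa5 had 202 and 187 RPKM in RANKL cultures, against 246 and 293 RPKM in PBS cultures (-0.46 ± 0.12, limma adjusted p = 0.0198). Both were lower in RANKL without overlap.

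Other members of these complexes fell by less at 72 h or missed the threshold. Ssr1, the alpha subunit of the translocon-associated protein complex (TRAP), had 29.5 and 26.1 RPKM in RANKL cultures, against 35.2 and 40.7 RPKM in PBS cultures (-0.43 ± 0.12, limma adjusted p = 0.0224). Canx, the membrane lectin calnexin, had 131 and 136 RPKM in RANKL cultures, against 162 and 170.2 RPKM in PBS cultures (-0.32 ± 0.10, limma adjusted p = 0.0526). Canx lay lower in both RANKL libraries, by an amount that did not pass. Xbp1 had 60.7 and 56.4 RPKM in RANKL cultures, against 61.0 and 56.1 RPKM in PBS cultures (0.00 ± 0.10), so its libraries overlapped at this time. The difference of the RANKL effect between 72 h and 48 h was called for 0 of the 32 genes by limma, with 2 at an unadjusted p under 0.05 (0.0289% of all genes called), and for Xbp1 it was 0.36 ± 0.14 (limma adjusted p = 0.355).

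**Figure D3:**
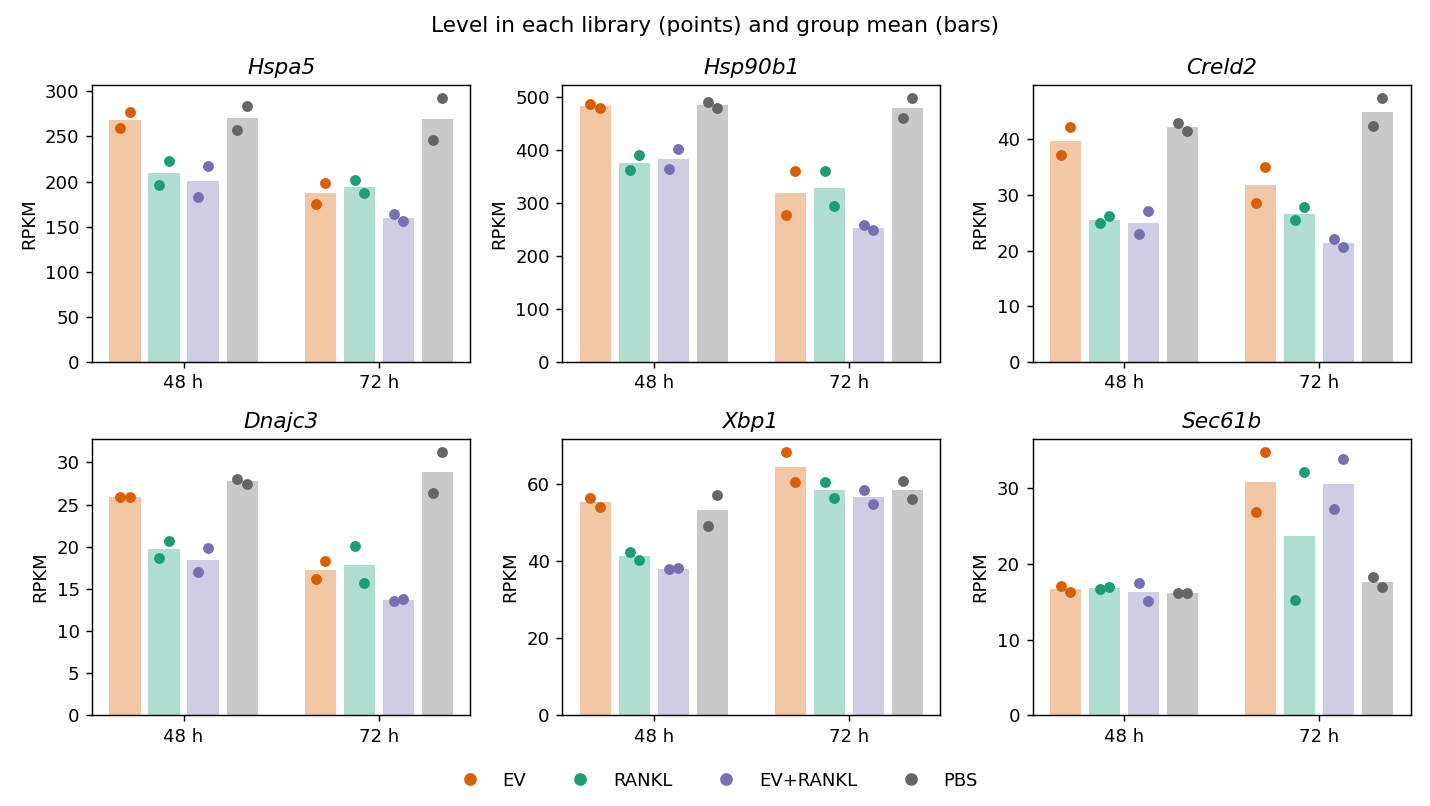
RPKM (y axes, from 0) of Hspa5, Hsp90b1, Creld2, Dnajc3, Xbp1 and Sec61b in each library (points) with the group mean (bars), by time (x axis) and treatment (colour). Creld2 and Dnajc3 are lower in RANKL and EV+RANKL than in PBS at both times, whereas Sec61b lies at 26.8 to 34.8 RPKM in 5 libraries of 72 h and at 15.1 to 18.3 in the other 11.

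Vesicles alone against PBS at 48 h moved the 32 genes little. By limma 0 of 32 passed in either direction, with 2 at an unadjusted p under 0.05, against 0.608% of all tested genes higher and 0.685% lower. The median change was -0.02, against 0.03 for all tested genes, and the standard errors of single genes were 0.08 to 0.24. Edem1, a mannosidase-like protein that directs glycoproteins to ERAD, had 68.0 and 62.4 RPKM in EV cultures, against 49.7 and 43.5 RPKM in PBS cultures (0.48 ± 0.11, limma adjusted p = 0.0569). Both EV libraries lay above both PBS libraries, and the change missed the threshold in the fit of all libraries. With the 48 h libraries alone, 1 gene passed, in the higher direction. Hspa5 had 259.6 and 277 RPKM in EV cultures, against 257 and 284 RPKM in PBS cultures (-0.01 ± 0.12), and Creld2 had 37.2 and 42.2 RPKM in EV cultures, against 42.9 and 41.5 RPKM in PBS cultures (-0.09 ± 0.12). Libraries of both these genes overlapped between the groups. Of the 32 changes 22 were negative, against 41% of all tested genes.

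Vesicles alone against PBS at 72 h gave a different count. With EV, 14 of the 32 genes fell and 1 rose, against 7.83% of all tested genes lower and 10.4% higher (limma). The fallen genes were 6 of 8 chaperones (Dnajc3, Manf, Hsp90b1, Dnajb11, Hyou1 and Hspa5), 3 of 5 oxidoreductases (Pdia3, Creld2 and Pdia4), Calr, the ERAD ligase Syvn1 and the translocon genes Ssr1, Ssr3 and Sec61a1, and Sec61b rose. The median change was -0.28, against 0.03 for all tested genes. Both EV libraries and neither PBS library of 72 h are among the 5 that stand apart, so the treatment and that difference cannot be told apart here. The calls rest on single libraries: 0 genes passed without replicate 1 of EV, 0 without replicate 2 of PBS, 12 without replicate 1 of PBS and 19 without replicate 2 of EV. In a fit of the 72 h libraries alone 0 passed.

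Calr had 396 and 542 RPKM in EV cultures, against 819 and 902 RPKM in PBS cultures of 72 h (-0.89 ± 0.17, limma adjusted p = 0.0109). Dnajc3 had 16.2 and 18.3 RPKM in EV cultures, against 26.4 and 31.3 RPKM in PBS cultures (-0.71 ± 0.12, limma adjusted p = 0.00833). Both genes were lower in EV with no overlap. Manf, a secreted BiP partner with neurotrophic activity, had 35.9 and 41.1 RPKM in EV cultures, against 55.3 and 67.0 RPKM in PBS cultures (-0.65 ± 0.12, limma adjusted p = 0.0102). Hsp90b1 had 276 and 361 RPKM in EV cultures, against 459.6 and 498 RPKM in PBS cultures (-0.60 ± 0.13, limma adjusted p = 0.0135). In these 4 genes replicate 1 of EV was lower than replicate 2. Creld2 had 28.5 and 35.1 RPKM in EV cultures, against 42.5 and 47.4 RPKM in PBS cultures (-0.49 ± 0.12, limma adjusted p = 0.0174). Syvn1, the ERAD ubiquitin ligase HRD1, had 9.53 and 10.1 RPKM in EV cultures, against 12.9 and 14.2 RPKM in PBS cultures (-0.43 ± 0.10, limma adjusted p = 0.0157). Neither overlapped between the groups.

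Some genes did not fall in EV cultures of 72 h. Herpud1 had 36.3 and 24.1 RPKM in EV cultures, against 25.6 and 19.3 RPKM in PBS cultures, and overlapped (0.39 ± 0.19, limma adjusted p = 0.151). P4hb had 555 and 450.2 RPKM in EV cultures, against 533 and 399 RPKM in PBS cultures, and overlapped too (0.12 ± 0.14, limma adjusted p = 0.571). Sdf2l1 had 30.1 and 47.4 RPKM in EV cultures, against 45.1 and 47.1 RPKM in PBS cultures, so that 1 EV library was low and the other as high as PBS. The difference of the EV effect between 72 h and 48 h was called for 0 of the 32 genes by limma, with 14 at an unadjusted p under 0.05, against 0.0193% of all genes called. For Edem1 it was -0.77 ± 0.15 (limma adjusted p = 0.108) and for Calr -0.78 ± 0.24 (limma adjusted p = 0.16). Without replicate 2 of EV at 72 h, 17 genes passed this test.

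Sec61b, the beta subunit of the translocon channel, went the other way from Sec61a1. At 72 h it had 27.3 and 33.8 RPKM in EV+RANKL, 26.8 and 34.8 in EV, 15.2 and 32.1 in RANKL and 18.3 and 16.9 RPKM in PBS cultures. It rose against PBS in EV (0.76 ± 0.24, limma adjusted p = 0.0452) and in EV+RANKL (0.75 ± 0.24, limma adjusted p = 0.0236), and not in RANKL (0.32 ± 0.24, limma adjusted p = 0.393). The RANKL libraries differed from each other by more than any other pair, and the higher one is the library with the higher share of ribosomal protein genes. The high level of Sec61b thus went with the 5 libraries in which those genes took 10.1% to 10.6%, and their part in the result was not tested. Sec61a1 at 72 h had 24.0 and 25.8 RPKM in EV+RANKL, 30.2 and 30.1 in EV, 27.7 and 26.5 in RANKL and 35.1 and 38.0 RPKM in PBS cultures. It was lower than PBS in every treated library.

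EV+RANKL against PBS called the most of the 32 genes at both times. At 48 h, 15 genes fell and 1 rose, against 10.9% of all tested genes lower and 11.2% higher (limma), and the median change was -0.34, against 0.07 for all tested genes. At 72 h, 22 genes fell and 2 rose, against 22.1% lower and 19.9% higher, and the median was -0.53, against -0.02. RANKL, EV and EV+RANKL are all set against the same 2 PBS libraries at each time, so these comparisons are not independent of each other. Without any 1 library, 4 to 12 genes passed at 48 h (4 without replicate 1 of EV+RANKL, 6 without either PBS library) and 20 to 22 at 72 h.

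At 48 h the genes that fell were 6 chaperones (Dnajc3, Sdf2l1, Hyou1, Hspa5, Dnajb11 and Manf), the oxidoreductases Creld2, Pdia6 and Pdia3, the ERAD genes Herpud1, Os9, Derl2 and Sel1l, Xbp1 and Sec61a1. Edem1 rose, with 71.4 and 58.1 RPKM in EV+RANKL cultures, against 49.7 and 43.5 RPKM in PBS cultures (0.46 ± 0.11, limma adjusted p = 0.00904). It was the only 1 of the 32 to rise in this comparison, and its EV+RANKL libraries differed from each other by more than its PBS libraries did. Creld2 had 23.0 and 27.1 RPKM in EV+RANKL cultures, against 42.9 and 41.5 RPKM in PBS cultures (-0.74 ± 0.12, limma adjusted p = 0.000555). Herpud1 had 7.48 and 10.4 RPKM in EV+RANKL cultures, against 13.8 and 14.0 RPKM in PBS cultures (-0.60 ± 0.19, limma adjusted p = 0.0387). Derl2 had 3.04 and 3.43 RPKM in EV+RANKL cultures, against 4.54 and 4.37 RPKM in PBS cultures (-0.37 ± 0.08, limma adjusted p = 0.00663). Xbp1 had 37.9 and 38.2 RPKM in EV+RANKL cultures, against 49.3 and 57.2 RPKM in PBS cultures (-0.47 ± 0.10, limma adjusted p = 0.00401). In these 4 genes every EV+RANKL library lay below every PBS library.

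At 72 h all 5 oxidoreductases, both lectins, 7 of 8 chaperones, 4 of 5 translocon genes and 4 of 7 ERAD genes fell. The 12 largest falls were those of Creld2, Dnajc3, Hsp90b1, Manf, Calr, Pdia3, Ssr1, Pdia6, Pdia4, Herpud1, Hspa5 and Hyou1. Creld2 had 22.1 and 20.6 RPKM in EV+RANKL cultures, against 42.5 and 47.4 RPKM in PBS cultures (-1.04 ± 0.12, limma adjusted p = 3.69e-05). Dnajc3 had 13.5 and 13.8 RPKM in EV+RANKL cultures, against 26.4 and 31.3 RPKM in PBS cultures (-1.02 ± 0.12, limma adjusted p = 5.45e-05). In both genes the EV+RANKL libraries were close together and far from PBS. Hsp90b1 had 258 and 249 RPKM in EV+RANKL cultures, against 459.6 and 498 RPKM in PBS cultures (-0.91 ± 0.13, limma adjusted p = 0.000187). Hspa5 had 164 and 156 RPKM in EV+RANKL cultures, against 246 and 293 RPKM in PBS cultures (-0.74 ± 0.12, limma adjusted p = 0.00052). Calr had 487 and 438 RPKM in EV+RANKL cultures, against 819 and 902 RPKM in PBS cultures (-0.90 ± 0.17, limma adjusted p = 0.00129). No library of 1 group reached the other in these 3 genes. Ssr1 had 20.1 and 22.7 RPKM in EV+RANKL cultures, against 35.2 and 40.7 RPKM in PBS cultures (-0.80 ± 0.12, limma adjusted p = 0.000244). Herpud1 had 13.4 and 12.4 RPKM in EV+RANKL cultures, against 25.6 and 19.3 RPKM in PBS cultures (-0.75 ± 0.19, limma adjusted p = 0.00721). Both were lower without overlap. The remaining falls, of Dnajb11, Sdf2l1, Sec61a1, P4hb, Ssr2, Canx, Ssr3, Derl2, Sel1l and Os9, lay between -0.71 ± 0.13 for Dnajb11 and -0.24 ± 0.08 for Os9.

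**Figure D4:**
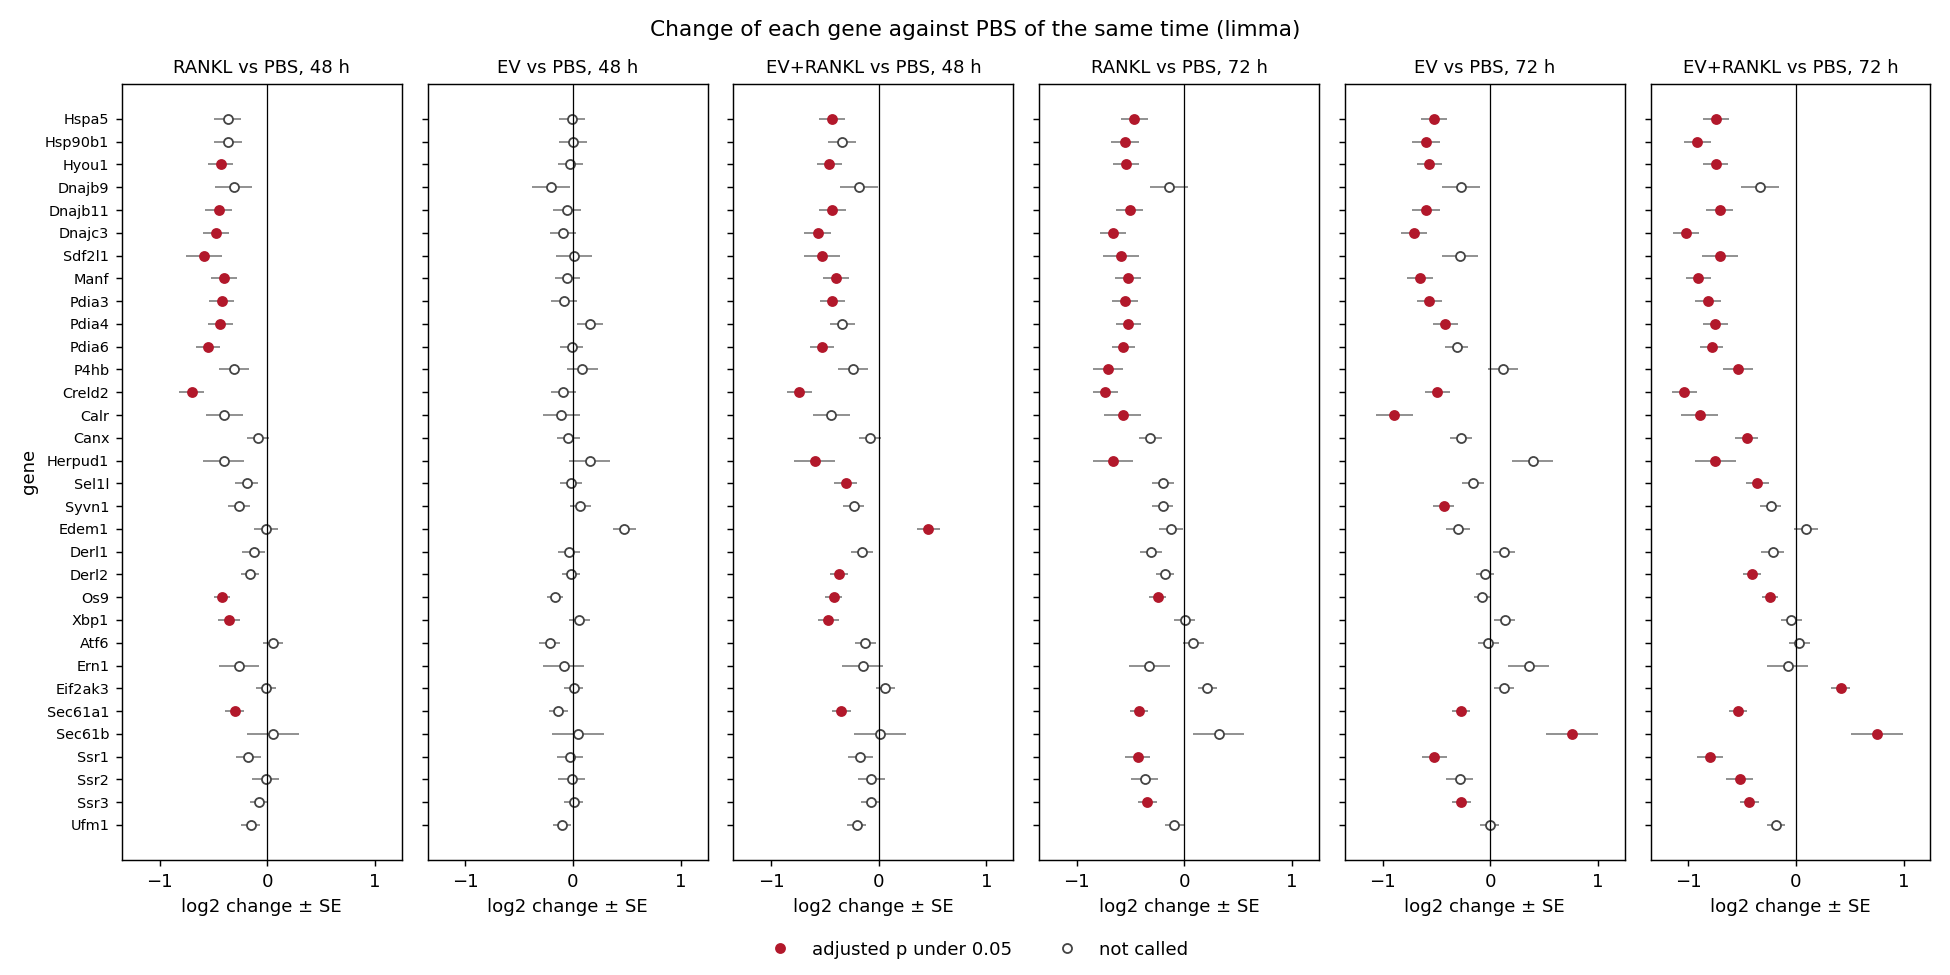
Log2 change ± SE (x axes, limma) of each of the 32 genes (rows) against PBS of the same time, in 6 panels by treatment and time; filled points passed an adjusted p of 0.05 and open points did not. Most points lie left of 0, furthest in EV+RANKL at 72 h, where Creld2 is at -1.04; the filled points right of 0 are Edem1 in EV+RANKL at 48 h (0.46), Sec61b in EV at 72 h (0.76), and Sec61b (0.75) and Eif2ak3 (0.42) in EV+RANKL at 72 h.

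Of the 4 sensors and transcription factors, Xbp1 fell in RANKL and in EV+RANKL at 48 h and Eif2ak3 rose in EV+RANKL at 72 h, and no other comparison of these genes with PBS passed (limma). Eif2ak3, the PERK gene, had 5.58 and 5.25 RPKM in EV+RANKL, 4.24 and 4.27 in EV, 4.26 and 4.91 in RANKL and 3.78 and 3.84 RPKM in PBS cultures of 72 h. It rose in EV+RANKL (0.42 ± 0.09, limma adjusted p = 0.0032), in all 9 alternative settings too, and missed the threshold in EV (0.13 ± 0.09) and in RANKL (0.21 ± 0.09). All 6 treated libraries of 72 h lay above both PBS libraries. At 48 h Eif2ak3 had 4.52 and 3.73 RPKM in EV+RANKL, 3.93 and 3.90 in EV, 3.78 and 3.94 in RANKL and 4.05 and 3.74 RPKM in PBS cultures, and the groups overlapped.

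Ern1, the IRE1 gene, had 4.11 and 3.48 RPKM in EV+RANKL, 7.55 and 3.90 in EV, 3.12 and 2.92 in RANKL and 4.60 and 3.55 RPKM in PBS cultures of 72 h. One EV library was far above the other, and no comparison with PBS passed. At 48 h Ern1 had 3.19 and 3.37 RPKM in EV+RANKL, 3.35 and 3.59 in EV, 2.91 and 3.01 in RANKL and 3.68 and 3.81 RPKM in PBS cultures. Atf6 had 23.4 and 25.3 RPKM in EV+RANKL, 24.0 and 23.0 in EV, 24.3 and 26.3 in RANKL and 23.8 and 23.9 RPKM in PBS cultures of 72 h, a narrow range over all 8 libraries. At 48 h it had 24.9 and 23.6 RPKM in EV+RANKL, 21.2 and 24.4 in EV, 27.7 and 27.5 in RANKL and 24.6 and 28.7 RPKM in PBS cultures. Atf6, Ern1, Derl1, Dnajb9 and Ufm1 are the 5 genes that passed in none of the 6 comparisons with PBS. Dnajb9, the BiP cochaperone ERdj4 and a target of XBP1, had 6.09 and 6.09 RPKM in EV+RANKL, 7.72 and 5.29 in EV, 8.14 and 6.17 in RANKL and 6.71 and 9.32 RPKM in PBS cultures of 72 h, with wide spread within groups. Ufm1, the ubiquitin-like modifier of ER ribosomes, stayed between 4.62 and 6.59 RPKM in all 16 libraries.

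Adding vesicles to RANKL asks what EV does to cultures already under RANKL. At 48 h, EV+RANKL against RANKL gave 0 of 32 genes past the threshold, with 2 at an unadjusted p under 0.05, against 0.270% of all tested genes higher and 0.164% lower (limma). The median change was -0.00, and 16 of the 32 changes were negative, against 49% of all tested genes. Edem1 had 71.4 and 58.1 RPKM in EV+RANKL, against 48.5 and 44.1 RPKM in RANKL cultures (0.47 ± 0.11, limma adjusted p = 0.0908), with no overlap between the groups. At 72 h, 0 of 32 passed as well, with 9 at an unadjusted p under 0.05, against 1.30% of all tested genes higher and 0.531% lower. The median was -0.15, against -0.02 for all tested genes, and 25 of the 32 changes were negative, against 53.5% of all tested genes. Both EV+RANKL libraries and replicate 2 of RANKL are among the libraries that stand apart. Without replicate 2 of RANKL, 6 genes passed at 72 h. Manf had 32.8 and 31.2 RPKM in EV+RANKL, against 46.5 and 37.9 RPKM in RANKL cultures (-0.38 ± 0.12, limma adjusted p = 0.113). Ssr1 had 20.1 and 22.7 RPKM in EV+RANKL, against 29.5 and 26.1 RPKM in RANKL cultures (-0.36 ± 0.12, limma adjusted p = 0.117). Both were lower in EV+RANKL in each library.

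Whether EV acted differently with and without RANKL was tested as an interaction. It was called for 0 of the 32 genes at 48 h, with 0 at an unadjusted p under 0.05 (limma, 0.00965% of all genes called). At 72 h it was called for 0 of 32 as well, with 5 at an unadjusted p under 0.05, all of them positive (0.00965% of all genes called). For Calr the interaction at 72 h was 0.57 ± 0.24 (limma adjusted p = 0.496), for Edem1 0.52 ± 0.15 (limma adjusted p = 0.316) and for Syvn1 0.40 ± 0.14 (limma adjusted p = 0.404). A positive value means that the fall with EV was smaller, or the rise larger, in the presence of RANKL.

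Time in culture was compared within each treatment. In EV+RANKL, 11 of the 32 genes were lower and 3 higher at 72 h than at 48 h (limma), against 21.5% of all tested genes lower and 17.4% higher. In EV, 11 were lower and 5 higher, against 14.9% lower and 17.4% higher. In RANKL 0 were lower and 1 higher, against 2.58% lower and 3.45% higher. In PBS 0 passed in either direction, with 6 at an unadjusted p under 0.05, against 0.502% lower and 0.145% higher. The 5 libraries that stand apart all belong to 72 h, and in EV and EV+RANKL the time and that difference cannot be told apart.

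The genes lower at 72 h in EV were Calr, Dnajb11, Hsp90b1, Hyou1, Dnajc3, Ssr1, Pdia3, Hspa5, Manf, Syvn1 and Pdia4. Calr had 396 and 542 RPKM at 72 h, against 833 and 894 RPKM at 48 h (-0.90 ± 0.17, limma adjusted p = 0.00435). The higher ones were Herpud1, Sec61b, Ern1, P4hb and Derl1. Herpud1 had 36.3 and 24.1 RPKM at 72 h, against 15.7 and 15.4 RPKM at 48 h (0.89 ± 0.19, limma adjusted p = 0.00623). Herpud1 was also higher at 72 h in PBS, with 25.6 and 19.3 RPKM, against 13.8 and 14.0 RPKM at 48 h, without passing (0.65 ± 0.19, limma adjusted p = 0.177). Derl1, an ERAD channel subunit, had 29.6 and 26.5 RPKM at 72 h, against 20.1 and 21.7 RPKM at 48 h in EV (0.41 ± 0.10, limma adjusted p = 0.0126). Without replicate 1 of EV at 72 h, 1 of the 32 genes passed, without either EV library of 48 h 10 passed, and without replicate 2 of EV at 72 h 22 passed.

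Xbp1 was the gene that rose with time under RANKL. It had 58.6 and 54.9 RPKM at 72 h, against 37.9 and 38.2 RPKM at 48 h in EV+RANKL (0.56 ± 0.10, limma adjusted p = 0.00175). In RANKL it had 60.7 and 56.4 RPKM at 72 h, against 42.4 and 40.3 RPKM at 48 h (0.49 ± 0.10, limma adjusted p = 0.0205). Neither pair overlapped, and in RANKL 0 of the 32 genes passed without replicate 1 or 2 of 48 h or without replicate 2 of 72 h. The other genes higher with time in EV+RANKL were Eif2ak3 and Sec61b. Without replicate 2 of 48 h 3 genes passed, and without replicates 1 or 2 of 72 h 4 or 7 passed. The lower genes were Ssr1, Hsp90b1, Calr, Pdia3, Dnajc3, Manf, Ssr2, Dnajb11, Canx, Ssr3 and Sec61a1. Ssr1 had 20.1 and 22.7 RPKM at 72 h, against 33.6 and 36.5 RPKM at 48 h in EV+RANKL (-0.69 ± 0.12, limma adjusted p = 0.00163). The EV+RANKL effect against PBS at 72 h minus that at 48 h was called for 1 of the 32 genes, Ssr1 (-0.63 ± 0.17, limma adjusted p = 0.0368), with 13 at an unadjusted p under 0.05, against 9.62% of all genes called.

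The genes with an ERSE or ERSE-II match, whose sequences are given above, were set beside the others. The sets differ in role: most genes with a match encode chaperones, oxidoreductases or lectins. By role, the medians in EV+RANKL against PBS at 72 h were -0.74 (chaperones), -0.78 (oxidoreductases), -0.68 (lectins), -0.52 (translocon), -0.24 (ERAD) and -0.01 (sensors). The part of role was not tested. In the same comparison 9 of 10 genes with a match fell, with a median change of -0.77. Of 16 genes with a promoter sequence and no match 9 fell and 2 rose, with a median of -0.34. In EV against PBS at 72 h the medians were -0.51 with a match and -0.12 without, and in RANKL against PBS at 72 h they were -0.56 and -0.23. At 48 h they were -0.44 with a match and -0.22 without in EV+RANKL, -0.03 and -0.01 in EV, and -0.40 and -0.23 in RANKL. Herpud1 is the exception among the 10 in EV at 72 h, with a change of 0.39 ± 0.19, the others being negative. Sdf2l1 and Pdia4 fell with RANKL at both times although their promoters held no match in these 300 bases. Outside the 32 genes, 10 tested genes had ERSE or ERSE-II. In EV+RANKL against PBS at 72 h 3 of these rose and 4 fell, with a median of -0.01. In RANKL against PBS at 72 h 3 rose and 3 fell, with a median of 0.11, and in EV 2 rose and 2 fell, with a median of 0.01. At 48 h their medians were 0.08 in EV+RANKL, -0.01 in EV and 0.11 in RANKL.

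**Figure D5:**
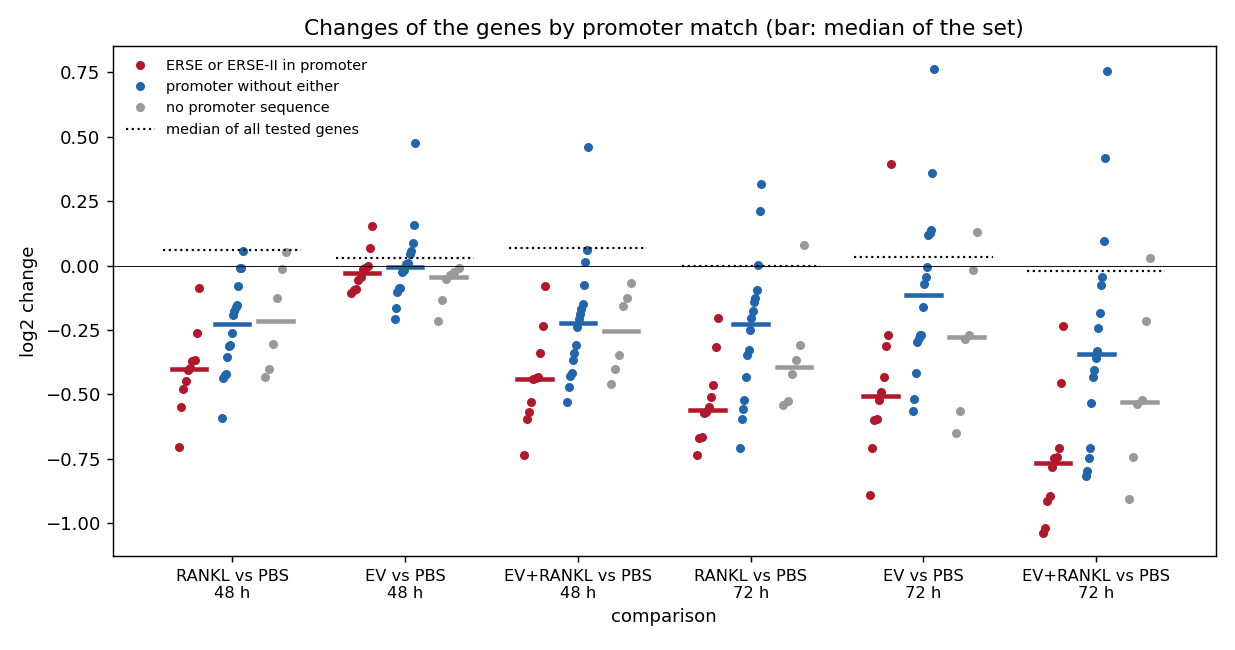
Log2 change (y axis) of each of the 32 genes in the 6 comparisons with PBS (x axis), in 3 sets by promoter: with ERSE or ERSE-II (10 genes), with a promoter sequence and no match (16) and with no promoter sequence used here (6); bars are medians. The set with a match lies lowest in 5 comparisons, with medians of -0.77, -0.34 and -0.53 for the 3 sets in EV+RANKL at 72 h, and EV at 48 h has all 3 medians near 0.

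A further 90 genes of the same pathway, 88 of them tested, give the setting. In RANKL against PBS, 3 of 88 fell and 2 rose at 48 h, and 26 fell and 1 rose at 72 h (limma). In EV against PBS 0 passed at 48 h, with 3 at an unadjusted p under 0.05, and 13 fell and 7 rose at 72 h. In EV+RANKL against PBS, 6 fell and 3 rose at 48 h, and 35 fell and 9 rose at 72 h. Over all tested genes the shares lower and higher were 9.13% and 9.73% in RANKL, 7.83% and 10.4% in EV and 22.1% and 19.9% in EV+RANKL at 72 h. At 48 h they were 8.29% and 6.47% in RANKL, 0.685% and 0.608% in EV and 10.9% and 11.2% in EV+RANKL. The 48 h counts of the pathway genes were thus no more than these shares. The counts at 72 h rest on single libraries: in RANKL 9 of 88 fell without replicate 2 of RANKL and 14 without either PBS library, and in EV 0 passed without replicate 1 of EV or replicate 2 of PBS. In fits of the 72 h libraries alone, 23 fell in EV+RANKL, 0 in EV and 3 in RANKL.

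Among 21 tested genes of translocation, signal peptidase and N-glycosylation, 13 fell and 1 rose in EV+RANKL against PBS at 72 h, against the same 22.1% and 19.9%. The leading ones were Sec61g, the gamma subunit of the channel (-0.63 ± 0.08), and the oligosaccharyltransferase subunits Ddost (-0.67 ± 0.11), Rpn1 (-0.56 ± 0.10) and Rpn2 (-0.45 ± 0.08, log2 ± SE). Among 19 other folding genes, 11 fell and 2 rose, led by Ppib, cyclophilin B (-0.91 ± 0.12), Erp44, which retains ER oxidoreductases (-0.82 ± 0.12), Hspa13 (-0.65 ± 0.10) and Txndc5 (-0.81 ± 0.14). Qsox1, a sulfhydryl oxidase, fell in RANKL at 48 h (-0.65 ± 0.08) and at 72 h (-0.48 ± 0.08). The count of folding genes that fell was 7 without replicate 1 of EV+RANKL. Of 16 other ERAD genes 2 fell and 3 rose in EV+RANKL at 72 h, which is no more than the shares of all tested genes, 22.1% lower and 19.9% higher. Of 15 genes that process or regulate the sensors 2 fell and 3 rose, again near those shares, among them Creb3l2, an ER-bound transcription factor (1.35 ± 0.15), which also rose in EV+RANKL at 48 h (1.34 ± 0.15) and in RANKL at 48 h (0.75 ± 0.15) and 72 h (0.94 ± 0.15). At 48 h in RANKL the call of Creb3l2 was lost without replicate 1 of PBS or replicate 2 of RANKL. Of 6 other genes of UFM1 conjugation, Ddrgk1 (-0.48 ± 0.12) and Ufsp2 (-0.40 ± 0.10) fell, and Ufsp2 did not pass without replicate 1 of PBS or of EV+RANKL.

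A list made for the output of PERK through ATF4 and CHOP held 11 tested genes, and whether PERK was the source of their changes was not tested. The PBS libraries of 72 h were far apart for most of them. They were closer for Cebpb (7.65 and 6.67 RPKM) and Eif2s1 (51.9 and 57.7 RPKM). Atf3, a stress-induced transcription factor, had 3.42 and 1.68 RPKM in RANKL cultures, against 40.2 and 8.44 RPKM in PBS cultures of 72 h. Ddit3, which encodes CHOP, had 3.27 and 2.20 RPKM in RANKL cultures, against 11.03 and 4.94 RPKM in PBS cultures. Replicate 1 of PBS was the higher in both genes. At 48 h Atf3 had 1.07 and 0.719 RPKM in RANKL, 0.395 and 0.569 in EV+RANKL and 9.18 and 9.87 RPKM in PBS cultures. Nupr1 had 4.14 and 4.97 RPKM in EV+RANKL, against 16.0 and 15.3 RPKM in PBS cultures of 48 h. The PBS libraries of 48 h were thus close in these genes, but not in Ddit3 (5.21 and 2.87 RPKM). Against PBS at 48 h, 1 of the 11 fell in RANKL and 2 fell in EV+RANKL, and 0 rose (limma). In EV at 48 h 0 passed. In RANKL against PBS at 72 h, 6 of the 11 fell and 0 rose, against 9.13% of all tested genes lower, among them Atf3 (-2.52 ± 0.49), Nupr1 (-1.25 ± 0.28), Ddit3 (-1.19 ± 0.36) and Atf4 itself (-0.64 ± 0.17). Without replicate 1 of PBS only Atf3 passed, at -1.46, and Nupr1 was at -0.83, Ddit3 at -0.68 and Atf4 at -0.37. Without replicate 2 of RANKL 0 passed.

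In EV+RANKL against PBS at 72 h 5 of these 11 genes fell and 0 rose, against 22.1% of all tested genes lower. Asns, asparagine synthetase, had 25.1 and 25.7 RPKM in EV+RANKL cultures, against 73.7 and 39.8 RPKM in PBS cultures (-1.07 ± 0.26), and without replicate 1 of PBS it was at -0.63 and did not pass (limma adjusted p = 0.0622). Without that library 3 of the 11 fell and 1 rose, and without replicate 2 of PBS 8 fell. In EV against PBS at 72 h 0 of 11 passed by limma, with 2 at an unadjusted p under 0.05, and 4 rose without replicate 1 of PBS.

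Within EV cultures 9 of the 11 were higher at 72 h than at 48 h, against 17.4% of all tested genes higher, and both EV libraries of 72 h are among the 5 that stand apart. Trib3, a pseudokinase induced by CHOP, had 12.7 and 4.92 RPKM at 72 h, against 0.320 and 0.226 RPKM at 48 h in EV cultures (2.83 ± 0.55). Atf3 changed by 2.18 ± 0.49, Chac1 by 1.82 ± 0.44 and Ddit3 by 1.33 ± 0.36 over the same step. Without replicate 1 of EV at 72 h 0 passed, and without replicate 1 or 2 of EV at 48 h 3 or 2 passed. In PBS cultures Trib3 had 7.79 and 0.782 RPKM at 72 h, against 0.151 and 0.305 RPKM at 48 h, and Chac1 had 6.98 and 1.02 RPKM at 72 h, against 0.914 and 0.562 RPKM at 48 h. Replicate 1 of PBS at 72 h was thus high in both genes, as the EV libraries were. In PBS 0 of the 11 passed between 72 h and 48 h, with 6 at an unadjusted p under 0.05 and a median change of 0.56. Hspa5 fell over the same step in EV cultures (-0.52 ± 0.12, limma adjusted p = 0.00902), with 175 and 199 RPKM at 72 h, against 259.6 and 277 RPKM at 48 h.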

How the data were processed

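RNA sequencing libraries of 8 groups, 2 each, were described in 1 table of 20490 genes and 16 columns. A TruSeq mRNA kit was used for the libraries, per the labels, and the submitters' processing notes list FastQC, HISAT2 and Partek. They also list GRCh38 and hg38, which are human builds, although the symbols are of mouse genes. Which mouse build, annotation and counting were used is not given in the sources used here. The deposited log2 values were read as log2(RPKM + 1), a unit found from their spacing: with base 2, 82.5% to 86.7% of low values of 2200 single-exon genes came within 0.05 of whole reads, with base e 63.0% to 69.3%, and with base 10 26.9% to 37.5%. Gene lengths for this came from GENCODE M21, and the depth per library (18.26 M to 20.02 M reads, M for mega) is an estimate. The column of replicate 2 of EV+RANKL at 48 h carries no R, and its plus sign placed it in its group.

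No count model was fitted. The deposited log2 values went into limma 3.58.1, run in R 4.3.3. All 16 libraries entered 1 fit of 8 group means with a variance trend, and p-values were adjusted over 10365 genes that reached 1 RPKM in 2 or more libraries, with a threshold of 0.05. The scale understates changes of genes near 1 RPKM. The fit was tested on simulated data. Errors of log2 changes are limma standard errors, and those of RPKM are standard deviations. The 32 genes and the pathway and marker lists were chosen with earlier results of these data known. Named are the genes past the threshold, up to 12 in each direction of a comparison, those of largest change in each role and the 4 sensors, and from each pathway list genes among the 4 of smallest adjusted p. Of 90 pathway genes all 90 were in the table, 4 by an older name, and 26 of 30 markers were. Promoters are RefSeq sequences of GRCm38.p6, used for sequence only. Alternatives were an added constant of 0.1, no filter, quantile normalization, a replicate block, each library left out, and, added after seeing the data, fits within 1 time. For the pathway genes, leaving out each library and these fits were also added after seeing the data.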

Additional observations from a re-analysis of the deposited data

Results flagged for a closer look

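The EV+RANKL effect against PBS differed between 72 h and 48 h for Ssr1, the alpha subunit of the translocon-associated complex, by a test of the difference itself (-0.63 ± 0.17 on the log2 scale, limma adjusted p = 0.0368). Ssr1 had 20.1 and 22.7 RPKM in EV+RANKL, against 35.2 and 40.7 RPKM in PBS cultures of 72 h, and 33.6 and 36.5 RPKM in EV+RANKL, against 40.3 and 38.7 RPKM in PBS cultures of 48 h. Both EV+RANKL libraries of 72 h are among the 5 that stand apart in ribosomal protein share, and the part of that difference was not tested. Of all tested genes 9.62% passed this test, and 1 of the 32 genes did. Ssr1 is the only gene of the 32 whose effects differed by such a test, and it was lost in the settings that leave 0 calls for this comparison.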

How the results depend on the processing

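Counts of the 32 genes past the threshold kept within 1.5 times of those reported with log2(RPKM + 0.1) for every comparison. Without a filter on low values, 0 genes passed for the EV+RANKL effect at 72 h minus that at 48 h. With quantile normalization 2 passed there, and 2 for 72 h against 48 h in RANKL. Quantile normalization shifted the median of all genes by -0.05 to 0.05. It put the share of higher genes among all calls at 45.9%, against 57.2% as deposited, in EV against PBS at 72 h, and at 72.4%, against 62.2%, in EV+RANKL against RANKL at 48 h. With 0.1 added, that share in EV+RANKL against RANKL at 72 h was 60.5%, against 71.1%. In fits within 1 time, added after seeing the data, 3 genes passed in RANKL against PBS at 72 h, 0 in EV against PBS at 72 h and 1 in EV against PBS at 48 h. No call changed direction in the alternatives run. The causes were not tested.

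With 1 library left out, which leaves a lone library assumed to vary like the others, 3 to 4 genes passed in RANKL against PBS at 48 h and 5 to 17 at 72 h. In EV against PBS 0 passed at 48 h in each case and 0 to 19 at 72 h. In EV+RANKL against PBS 4 to 12 passed at 48 h and 20 to 22 at 72 h, and in EV+RANKL against RANKL 0 in each case at 48 h and 0 to 6 at 72 h. For 72 h against 48 h, 3 to 12 passed in EV+RANKL, 1 to 22 in EV, 0 to 2 in RANKL and 0 to 1 in PBS. For the effects at 72 h minus those at 48 h, 0 to 1 passed in EV+RANKL, 0 to 17 in EV and 0 in RANKL, and for both interactions of EV and RANKL 0.

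Replicate numbers were not taken as pairs, since the labels give no shared batch and only 2 numbers. Differences between the replicates correlated at -0.11 to 0.53 over 28 pairs of groups, over 0.1 in 17 of them. With a replicate block 1 gene passed in EV against PBS at 48 h, 1 in EV+RANKL against RANKL at 48 h, 2 for 72 h against 48 h in RANKL, 1 for the same in PBS, and 2 for the EV+RANKL effect at 72 h minus that at 48 h.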
